A study of Rattus norvegicus with 18 samples.

Results

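The comparison described here set rat colon 7 days after a chemical injury against colon of saline-treated rats. The samples were chosen by their labels alone, 3 arrays of TNBS day 7 and 6 arrays of healthy controls, which makes 9 of the 18 arrays of the study. Rats of the day 7 group received 1 enema of 10 mg 2,4,6-trinitrobenzene sulfonic acid (TNBS, a hapten that binds to tissue proteins) in 50% ethanol at day 0, and control rats received a saline enema. No group given ethanol alone is among the samples, so the hapten and its solvent cannot be told apart. The other 9 arrays come from TNBS rats sampled on days 2, 5 and 14, with 3 arrays a day. The TNBS rats on the arrays were selected by the submitters on markers of inflammation (myeloperoxidase activity, loss of body weight and colon weight per length), so the day 7 group stands for inflamed animals and not for every treated animal. Strain, age, sex and the sampling day of the controls are not stated in the labels, nor is pooling of animals.

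RNA came from homogenised colon of full thickness, so each value mixes mucosa, muscle, nerves, vessels and infiltrating cells. In such bulk tissue fewer cells of a type and less RNA per cell cannot be told apart. For extraction, the labels of TNBS arrays give Trizol and those of control arrays a manufacturer's manual, whereas the study design gives Trizol and spin columns for the RNA as a whole.

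TNBS colitis is a widely used model of acute colonic inflammation with ulcers that extend through the wall. In injured gut, epithelial and resident immune cells release chemokines and interleukin 1, neutrophils and monocytes leave the vessels, and macrophages clear debris. Matrix metalloproteinases, zinc enzymes made by stromal cells and leukocytes, then cut collagens and other matrix proteins under the restraint of tissue inhibitors, while fibroblasts lay down, hydroxylate and crosslink new collagen. The epithelium that takes up salt, water and short-chain fatty acids is damaged and replaced over the same period.

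Array medians of the deposited values were 4.27 to 4.30 in controls, 5.05 to 5.06 on day 7 and 5.027 to 5.075 on days 2, 5 and 14. All 18 arrays were therefore brought to a common distribution by quantile normalization. Levels below are on that log2 scale, and a difference is the day 7 mean minus the control mean with its standard error (SE), tested with limma at a Benjamini-Hochberg adjusted p of 0.05. The words rose and fell are kept for genes also called the same way on the values as deposited. Those values were shifted upward on all TNBS arrays, those of day 7 included. A decrease called after quantile normalization alone is described in those words. The median over all 14217 genes was -0.06 after quantile normalization, 0.56 as deposited and -0.21 with each array centred on its median. Of these genes 2083 rose (14.7%), 2661 were called lower after quantile normalization (18.7%) and 217 of the latter fell (1.53%). Counted over probe sets, increases made up 43.7% of the calls after quantile normalization, 98.7% as deposited and 21.9% with median centring. The 3' minus 5' differences of array control probe sets, taken on the deposited values, differed between the groups in opposite directions. For Gapdh the difference was -0.16 to 0.14 in controls and 0.56 to 0.66 on day 7. For beta-actin it was 1.87 to 2.26 in controls and 1.28 to 1.40 on day 7. On days 2, 5 and 14 the ranges were 0.356 to 0.718 for Gapdh and 0.848 to 1.43 for beta-actin. Whether RNA quality differed cannot be read from them. On the leading principal component controls lay between -52.3 and -38.6 and day 7 between 34.3 and 67.2, with replicate 1 at 67.2. The part of RNA quality, extraction and array scale in the differences below was not tested.

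The 12 largest increases and 12 largest decreases were taken among genes called on both scales whose day 7 and control arrays did not overlap, so the separation of their arrays follows from that rule. Cxcl2, a chemokine that attracts neutrophils, measured 12.55, 11.45 and 11.42 on the 3 day 7 arrays and ran from 3.28 through a median of 3.41 to 3.63 on the 6 control arrays. Its difference was 8.37 ± 0.55 (adjusted p = 3.06e-07, limma), the largest of all genes that rose. Replicate 1 was the highest day 7 array, and the control levels lay below the medians of their arrays.

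S100a8 and S100a9 encode the 2 chains of calprotectin, the most abundant cytosolic protein of neutrophils. S100a8 measured 12.27, 10.75 and 11.47 on day 7 against a control range of 3.58 to 3.92 with a median of 3.71. It rose by 7.78 ± 0.61 (adjusted p = 1.07e-06, limma). S100a9 measured 13.17, 12.42 and 12.68 against 4.62, 5.25 and 5.61 as the lowest, median and highest control, and rose by 7.59 ± 0.52 (adjusted p = 3.95e-07, limma). Replicate 1 was the highest day 7 array for both.

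Il1b, the cytokine interleukin 1 beta, measured 12.73, 11.57 and 11.77 on day 7 and 4.95, 5.46 and 5.86 (lowest, median, highest) in controls, a rise of 6.62 ± 0.43 (adjusted p = 3.04e-07, limma). Il1r2, the decoy receptor that binds interleukin 1 without signalling, rose by 6.47 ± 0.63, and Lcn2, an iron-scavenging defence protein of neutrophils and epithelium, by 6.98 ± 0.66. Plek, a signalling protein of blood cells, rose by 6.44 ± 0.65, although control replicate 2 stood apart at 6.21 when the next control was at 4.49. The remaining genes among the 12 largest increases were Cxcl1 (6.38), Ccl3 (5.94), the protease inhibitor A2m (5.87), Ptgs2 (5.71) and Slfn4 (5.59). Ptgs2, the inducible cyclooxygenase that makes prostaglandins, varied between arrays, with 11.56, 8.30 and 9.48 on day 7 against 3.66 to 4.47 in controls. A second probe set of Slfn4 was called the other way, so its increase rests on the brighter one.

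The 12 largest decreases were smaller. Sstr1, a receptor for the inhibitory peptide somatostatin, measured 5.33, 4.21 and 5.21 on day 7 and 6.77, 7.36 and 8.05 (lowest, median, highest) in controls. It fell by 2.51 ± 0.47 on the log2 scale (adjusted p = 0.00108, limma). Amn, which anchors the vitamin B12 receptor in absorptive cells, measured 4.41, 5.19 and 5.15 against 7.01, 7.18 and 7.36 and fell by 2.26 ± 0.22 (adjusted p = 5.83e-06, limma). The lowest day 7 array was replicate 2 for Sstr1 and replicate 1 for Amn.

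Nmu, the gut peptide neuromedin U, fell by 2.08 ± 0.20, and Fut1, a fucosyltransferase, by 2.04 ± 0.29. Ppargc1a, a coactivator that drives mitochondrial genes, fell by 2.01 ± 0.43. The other decreases of this group were Cmahp (-2.21), Abca8a (-2.08), Ptprr (-1.92), the antisense transcript Hoxa11-as (-1.84) and 3 genes whose call after quantile normalization rested on 1 array. Tgm3, a transglutaminase, differed by -2.44 but by -1.42 without day 7 replicate 2. Akr1c15, an aldo-keto reductase, differed by -2.31 but by -1.69 without the same array, and Drc3, a protein of cilia, by -2.10 but by -1.29 without day 7 replicate 1. These 3 were not called in those fits. Ppargc1a, Cmahp, Abca8a, Ptprr and Hoxa11-as stayed called after quantile normalization whichever array was left out. As deposited, each of them lost its call in at least 1 such fit.

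**Figure D1:**
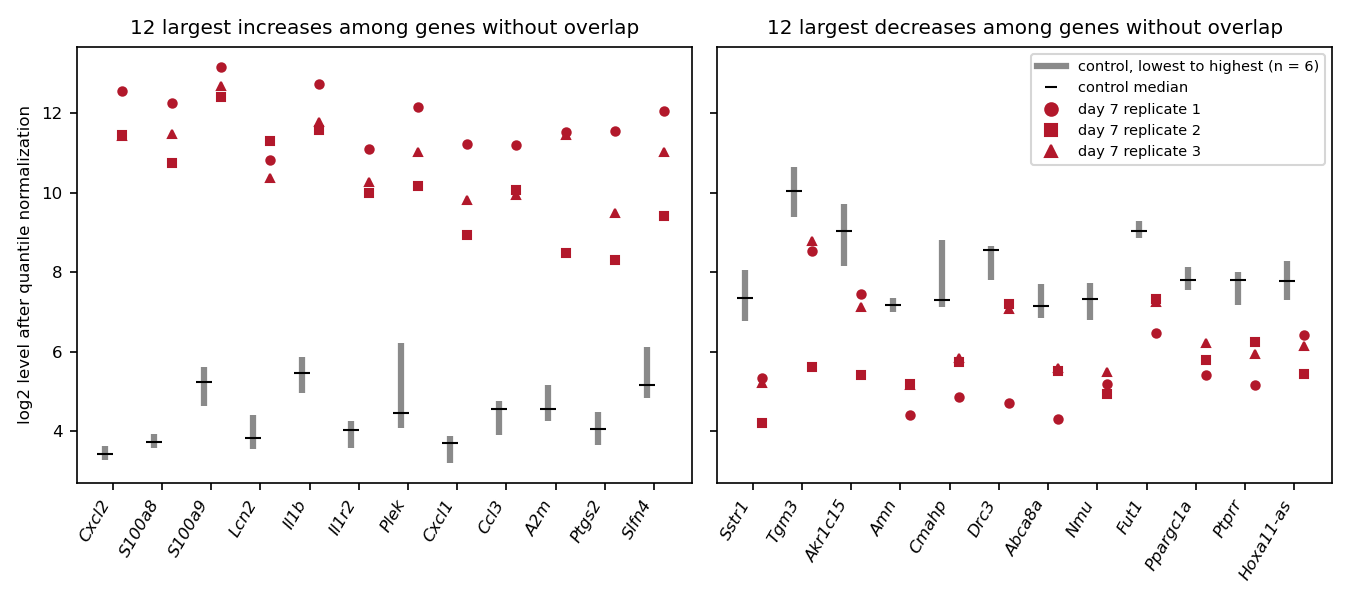
Log2 levels on day 7 and in controls of the 12 largest increases and 12 largest decreases among genes whose arrays did not overlap. The grey bar spans the lowest to the highest of the 6 control arrays with a tick at the median, and the red circle, square and triangle are day 7 replicates 1, 2 and 3. The symbols lie outside the grey bars because of that rule, and the increases span 5.59 to 8.37 log2 units against 1.84 to 2.51 for the decreases.

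Matrix-degrading enzymes rose as a group. Of 13 metalloproteinase genes measured, 10 rose (76.9%, against 14.7% of all genes) and none was called lower, with a median difference of 1.51 against -0.06 for all genes. Mmp13, a collagenase that cuts fibrillar collagen, measured 9.16, 5.30 and 8.29 on day 7 and 3.76, 3.84 and 4.37 (lowest, median, highest) in controls. It rose by 3.64 ± 0.73 (adjusted p = 0.00167, limma), with replicate 2 far below the other day 7 arrays but still above all controls.

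Mmp9, the gelatinase stored in neutrophil granules, measured 7.23, 6.26 and 5.72 against 3.24, 3.44 and 3.54, a rise of 2.99 ± 0.51 (adjusted p = 0.000536, limma). Mmp14, a membrane-bound collagenase that also activates Mmp2, measured 10.98, 11.22 and 11.38 against 7.90, 8.27 and 8.58, a rise of 2.96 ± 0.22 (adjusted p = 7.19e-07, limma). The day 7 arrays of Mmp14 spanned less than the controls did. Mmp12, the elastase of macrophages, measured 9.43, 8.10 and 7.64 against 5.52, 5.68 and 6.60 and rose by 2.59 ± 0.60 (adjusted p = 0.00443, limma), and its highest control, replicate 2, stood apart from the others at 6.60.

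Mmp2, the gelatinase of stromal cells, rose by 1.51 and Mmp23 by 1.08. Mmp3, the stromelysin of fibroblasts, measured 6.33, 4.14 and 6.09 against 3.10, 3.54 and 4.07 and rose by 1.95 ± 0.48 (adjusted p = 0.00646, limma), with replicate 2 only just above the highest control. The calls of Mmp3 and of Mmp8, the neutrophil collagenase (1.96), were lost without day 7 replicate 1, where their differences were 1.54 and 1.38. Mmp10, a second stromelysin, rose by 1.05 ± 0.37 (adjusted p = 0.0424, limma), a call that 7 of the 9 single-array omissions ended; its adjusted p ran from 0.000295 to 0.178 over all alternatives. Mmp19 (0.38) was as fragile, with 7 of the 9 omissions ending its call. Mmp7, the matrilysin of epithelium (0.08), Mmp11 (0.11) and Mmp16 (-0.06) were not called.

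Of the metalloproteinase genes on rat chromosome 8 with a promoter in the RefSeq table, 5 rose, and the promoters of 4 of these are shown because they hold the same element, which that of the fifth, Mmp8, does not. The 150 bases before the RefSeq start of each gene (GRCr8, plus strand, within 192 kb of one another) follow, written 5' to 3' in lower case, with capitals where the sequence matches TGANTCA, the site bound by the AP-1 transcription factors Fos and Jun.
Mmp13: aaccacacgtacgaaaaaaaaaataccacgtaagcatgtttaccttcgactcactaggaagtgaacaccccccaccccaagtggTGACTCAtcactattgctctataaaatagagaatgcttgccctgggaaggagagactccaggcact
Mmp12: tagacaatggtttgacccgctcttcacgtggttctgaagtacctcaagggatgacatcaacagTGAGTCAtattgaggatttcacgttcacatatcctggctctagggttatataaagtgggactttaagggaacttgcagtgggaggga
Mmp3: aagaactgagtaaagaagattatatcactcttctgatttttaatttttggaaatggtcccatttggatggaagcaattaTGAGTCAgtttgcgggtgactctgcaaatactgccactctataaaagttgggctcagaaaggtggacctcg
Mmp10: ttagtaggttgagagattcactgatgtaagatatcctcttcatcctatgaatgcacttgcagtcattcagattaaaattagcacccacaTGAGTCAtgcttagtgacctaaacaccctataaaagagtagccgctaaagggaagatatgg
These windows are chr8:12782679-12782828 for Mmp13, chr8:12866502-12866651 for Mmp12, chr8:12925131-12925280 for Mmp3 and chr8:12974557-12974706 for Mmp10. The match begins 66 bases before the start of Mmp13, 87 before that of Mmp12, 71 before that of Mmp3 and 61 before that of Mmp10. TGANTCA reads the same on both strands, and it occurs in 1234 of the 33469 promoters of the RefSeq table over the same window, or 3.69%. Of the measured metalloproteinases 8 have a promoter in the table: 4 of 6 that rose hold a match, and so does 1 of 2 that were not called, Mmp7, which is on chromosome 8 as well. The 4 genes were chosen with their increase and their match known, and a match describes letters and not binding.

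Inhibitors of these enzymes diverged. Timp1, the secreted inhibitor induced in inflamed tissue, measured 11.45, 10.64 and 10.93 on day 7 and 6.76, 7.68 and 9.25 (lowest, median, highest) in controls. It rose by 3.25 ± 0.53 (adjusted p = 0.00037, limma) although the controls spread over more than 2 log2 units. Timp2 rose by 0.82. Timp3, which is bound to the matrix, differed by -0.02 and the membrane inhibitor Reck by -0.39, and neither was called. Timp4 differed by -0.64 and was called lower after quantile normalization (18.7% of all genes were), not as deposited.

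Membrane and secreted sheddases of the ADAM and ADAMTS families showed 8 of 11 members that rose (median 0.59), of which 5 did so without day 7 replicate 1. Adam8, a sheddase of leukocytes, measured 9.91, 7.35 and 8.56 against 3.80, 4.01 and 4.27 and rose by 4.61 ± 0.48 (adjusted p = 1.09e-05, limma). Adamts1 rose by 2.83 ± 0.58 and Adamts4 by 2.44 ± 0.49, both of which cut proteoglycans such as versican, and Adam19 rose by 1.50 ± 0.21.

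In the plasminogen system, which activates several metalloproteinases, 5 of 8 members rose (median 0.97), but only 2 did without day 7 replicate 1. Plaur, the receptor of urokinase, measured 8.87, 6.90 and 7.58 against 4.30, 4.68 and 5.08 and rose by 3.10 ± 0.31 (adjusted p = 7.52e-06, limma). Serpinf1, a secreted serpin that restrains vessel growth, rose by 2.04 ± 0.30. The activators themselves moved less: urokinase (Plau) rose by 1.02 and tissue activator (Plat) by 0.76, with day 7 arrays inside the control range for both, and their calls were lost without day 7 replicate 1 (0.63 and 0.55). S100a10, a cell-surface plasminogen receptor, fell by 0.62 ± 0.11.

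Collagen genes rose almost without exception. All 7 fibrillar chains and all 9 fibril-associated, beaded and related chains measured had risen, as had 2 of 3 basement membrane chains, 18 of 19 in all (94.7%), with a median of 1.62. Col1a1, the main chain of type I collagen, measured 11.75, 12.55 and 12.11 on day 7 and 9.76, 9.82 and 10.02 (lowest, median, highest) in controls. It rose by 2.29 ± 0.39 (adjusted p = 0.00047, limma), with all day 7 arrays above all controls.

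Col18a1, a vascular basement membrane collagen, measured 9.01, 8.51 and 8.72 against 5.93, 5.99 and 6.39 and rose by 2.64 ± 0.28 (adjusted p = 1.16e-05, limma). Col5a3 rose by 2.21 ± 0.37, Col12a1 by 2.12 ± 0.37, Col1a2 by 1.89 ± 0.30 and Col3a1, the chain of type III collagen, by 1.16 ± 0.17. The basement membrane chains Col4a1 (1.78) and Col4a2 (1.54) rose, whereas Col4a5 differed by -0.67 and was not called. The calls of Col11a1, Col14a1 and Col16a1, with differences of 0.84, 0.86 and 0.60, were each lost in at least 1 fit that left out an array.

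The enzymes that hydroxylate, fold and crosslink collagen moved with it. Of 17 measured, 16 rose (94.1%, median 1.25) and the exception was F13a1 (0.36), a transglutaminase subunit of macrophages and platelets. Lox, the lysyl oxidase that starts crosslinking, measured 8.78, 8.36 and 8.62 against 5.00, 5.37 and 5.53 and rose by 3.26 ± 0.45 (adjusted p = 9.85e-05, limma). P4ha1, a prolyl hydroxylase subunit, rose by 2.25 ± 0.35, the folding factor Fkbp10 by 2.04 ± 0.27 and the lysyl hydroxylase Plod2 by 1.95 ± 0.33. Loxl2 (1.85), the propeptidase enhancer Pcolce (1.69) and the collagen chaperone Serpinh1 (1.24) also rose.

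Noncollagenous matrix proteins were more mixed. Of 37 measured, 25 rose (67.6%, median 0.99), 4 were called lower after quantile normalization, 2 without day 7 replicate 1, and 1 of these fell. Vcan, the large proteoglycan versican of provisional matrix, measured 9.19, 9.33 and 9.01 on day 7 and 4.68, 5.29 and 6.07 (lowest, median, highest) in controls, a rise of 3.88 ± 0.58 (adjusted p = 0.000186, limma), and all 5 of its probe sets were called higher. Spp1, the adhesive cytokine osteopontin, measured 9.40, 8.27 and 7.35 against 4.72, 4.86 and 5.10 and rose by 3.44 ± 0.70 (adjusted p = 0.00185, limma). Neither gene had a day 7 array within the control range.

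Matricellular and adhesive proteins rose in 16 of 20 cases, among them Mgp, an inhibitor of calcification (2.57 ± 0.32), Fbln2 (2.34), tenascin C (Tnc, 2.16), Sparc (1.83) and fibronectin (Fn1, 1.60). Laminins, nidogens and perlecan rose in 7 of 10, led by Nid2 (2.01) and Lama4 (1.71), while Lamb3, a laminin chain of epithelium, was called lower after quantile normalization (-0.64), but not without day 7 replicate 1. The small leucine-rich proteoglycans, which regulate fibril diameter, split: Bgn, which is also released in inflammation, rose by 2.79 ± 0.20 and Lum by 0.86, but the median of the 7 was -0.46, and Fmod (-0.74) and Prelp (-0.46) were called lower after quantile normalization, Fmod not without day 7 replicate 1 and Prelp in only 4 of the 9 fits that left out an array. Ogn fell by 1.52 on the log2 scale, with arrays that overlapped the controls, and 7 of the 9 single-array omissions left it called after quantile normalization only. Dcn (0.32) and Postn (0.17), which are widely used fibroblast genes, were not called.

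**Figure D2:**
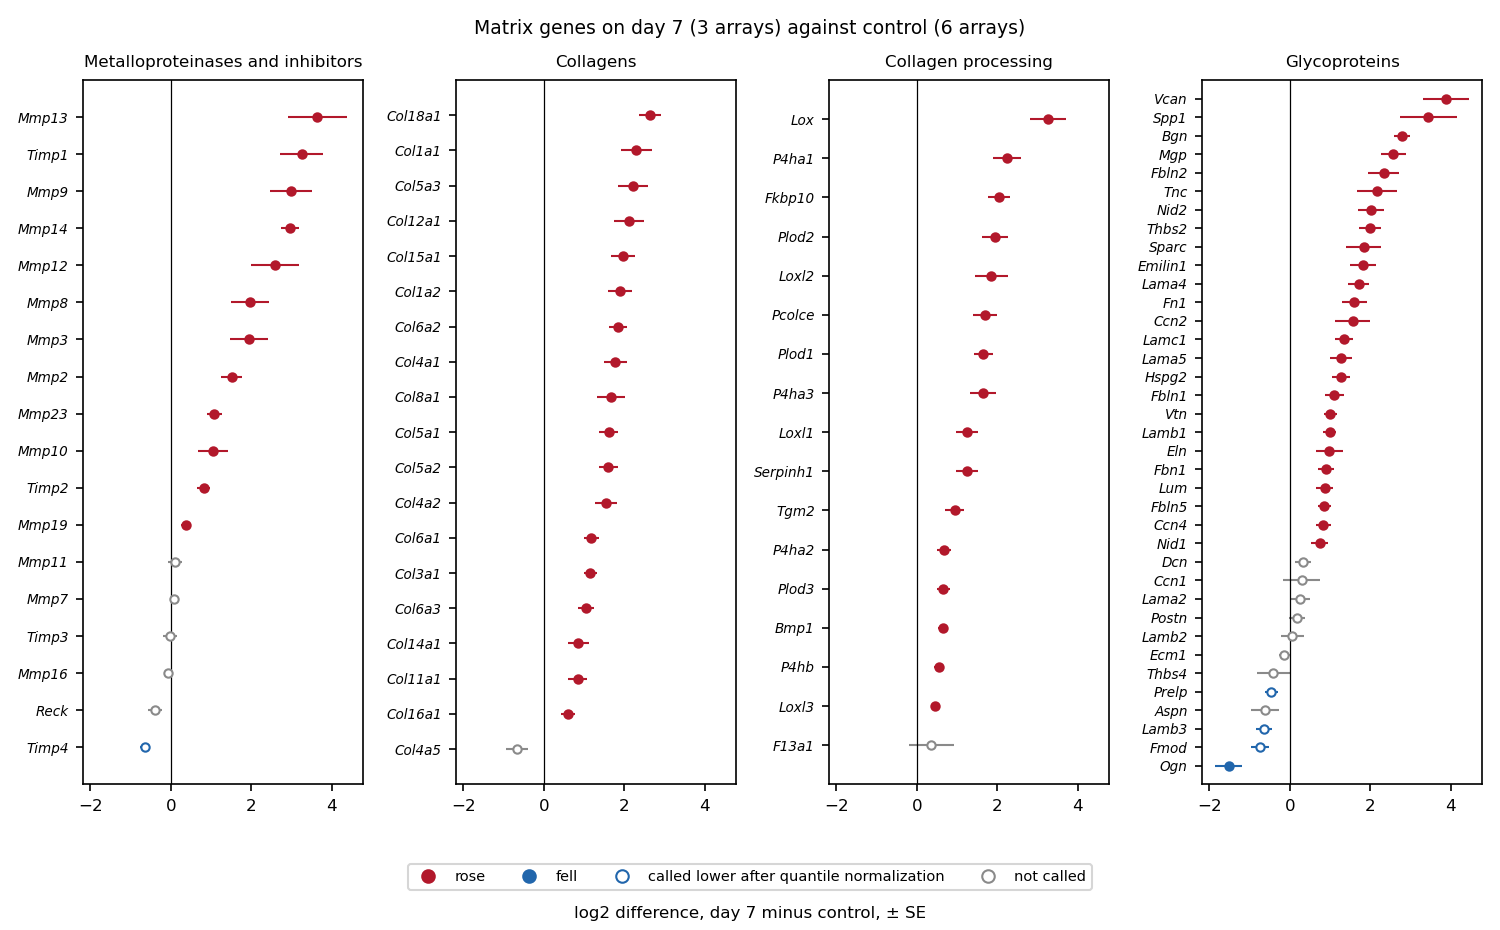
Log2 difference of day 7 minus control with its SE for genes of the matrix lists, by role. Red filled points rose, blue filled points fell, blue open points were called lower after quantile normalization only and grey open points were not called. Proteases and collagens lie almost wholly to the right of 0, while inhibitors and small leucine-rich proteoglycans lie on both sides.

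Growth factors that act on fibroblasts rose selectively. In the transforming growth factor beta and activin list 9 of 21 members rose (42.9%, against 14.7% of all genes, median 0.15). Inhba, the subunit of activin A, measured 9.85, 7.87 and 9.11 against 4.81, 5.39 and 6.42 and rose by 3.39 ± 0.53 (adjusted p = 0.000252, limma), and its relative Inhbb rose by 2.21 ± 0.40. Eng, a coreceptor of endothelium, rose by 1.75 ± 0.34 and Tgfb1 by 1.72 ± 0.31. Tgfb2 (-0.08), Smad3 (0.02) and the receptor Tgfbr1 (0.08) were not called. Bmp2, a ligand of the differentiated epithelium, fell by 1.48, as deposited only while day 7 replicate 2 was included, and Smad7, an inhibitor of the pathway, was called lower after quantile normalization (-0.86), but not without day 7 replicate 3.

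Receptors that bind matrix and vessels were led by leukocyte chains. Of 15 integrin genes 7 rose (46.7%, against 14.7% of all genes, median 0.62). Itgb2, the shared beta chain of leukocyte integrins, rose by 2.85 ± 0.56, although control replicate 2 stood apart as the highest control, and its partner Itgam by 2.08 ± 0.38. Itgb7, which directs lymphocytes to gut, rose by 1.23 ± 0.22, and the collagen receptor chain Itga1 by 1.23 ± 0.34, a call lost without day 7 replicate 1 (1.13). The chains Itga6 (-0.12) and Itgb6 (0.03) of epithelium were not called.

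Neutrophil genes had the highest median of the gene lists. Of 13 granule and receptor genes 8 rose (61.5%, median 2.01). Csf3r, the receptor of the factor that drives neutrophil production, measured 8.75, 7.77 and 8.83 against 3.13, 3.27 and 3.54 and rose by 5.15 ± 0.45 (adjusted p = 2.76e-06, limma). Cybb (3.47) and Ncf4 (2.70), subunits of the oxidase that makes superoxide, and the chemokine receptor Cxcr2 (2.01) rose. Antimicrobial peptides of the list behaved differently: Camp (-0.16) and Np4 (0.14) were not called. The defensin Defa5, which is not particular to neutrophils, was called lower after quantile normalization (-0.72).

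In the CXC chemokine list, which also holds Cx3cl1 of another family, 5 of 14 rose (35.7%, against 14.7% of all genes, median 0.68). They were Cxcl1, Cxcl2, Cxcl3 (2.27) and Cxcl6 (2.19), which attract neutrophils, and the platelet chemokine Pf4 (1.70), whereas Ppbp of platelets (0.19) was not called. Cxcl9 (0.98), Cxcl13 (1.00) and Cxcl10 (0.30), the attractants of T and B cells, were not called by limma, and Cxcl14 (-1.47) and Cx3cl1 (-1.20) were called lower after quantile normalization, though neither was without day 7 replicate 1. In the CC family 9 of 24 members rose (37.5%, against 14.7% of all genes, median 0.39). Ccl3 measured 11.21, 10.07 and 9.95 against 3.90, 4.55 and 4.76, and Ccl9 8.96, 8.26 and 7.96 against 3.34, 3.68 and 4.31, with no overlap. Ccl9 rose by 4.70 ± 0.30, the receptor Ccr1 by 3.95 ± 0.47 and the monocyte attractants Ccl7 by 3.46 ± 0.52 and Ccl2 by 3.33. Ccl20 (-0.21), Ccl17 (0.06) and Ccl22 (-0.38), which act on dendritic and T cells, were not called.

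Among interleukins and their receptors 25 of 36 rose (69.4%, median 1.22), and receptors and antagonists did so in 15 of 16 cases. Il1rn, the interleukin 1 receptor antagonist, measured 8.05, 7.06 and 7.34 against 3.23, 3.43 and 3.55 and rose by 4.07 ± 0.34 (adjusted p = 1.59e-06, limma). Osm, a cytokine that acts on stromal cells, rose by 4.04 ± 0.58 with 10.38, 6.40 and 7.23 on day 7 against 3.80 to 4.20 in controls, and Il1a rose by 3.84. Il6 rose by 2.90 ± 0.53, with replicate 1 at 7.87 and the other day 7 arrays at 5.27 and 5.80. Tnf rose by only 0.47 ± 0.12, and that call was lost without day 7 replicate 1 (0.25). Ifng (-0.01), Il12a (0.15), Il12b (-0.01) and Lta (-0.05), cytokines of the T helper 1 response, were not called, and Il18 was called lower after quantile normalization (-0.83), but not without day 7 replicate 2.

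Genes that restrain this signalling rose too, with 10 of 13 NF-kB and STAT feedback genes (76.9%, median 1.1). Mediator enzymes of the same list rose in 8 of 14 cases (57.1%), which made 18 of 27 together (66.7%, median 1.04). Nfkbia, which holds NF-kB in the cytoplasm, measured 12.59, 10.68 and 11.30 against 7.72, 8.39 and 8.68 and rose by 3.23 ± 0.33 (adjusted p = 8.31e-06, limma). Nfkbiz rose by 2.95 ± 0.33, Tnfaip3, an enzyme that ends NF-kB signalling, by 2.78 and Socs3, an inhibitor of STAT3 signalling, by 2.66. Arg1, an arginase of wound macrophages, rose by 5.25 ± 0.58 with 8.74, 10.94 and 8.75 against 3.80, 4.19 and 4.79, whereas Nos2, which competes for the same amino acid, differed by -0.29 and was not called. Hpgd, which breaks down prostaglandins, was called lower after quantile normalization (-1.05) in the full fit and in 5 of the 9 that left out an array.

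Innate sensors rose in 10 of 11 cases and the inflammasome and caspase genes in 2 of 6, Casp8 (0.55) and the pore-forming Gsdmd (0.92), which made 12 of 17 together (70.6%, median 0.68). Clec7a, the receptor of fungal glucans, rose by 4.14 ± 0.36 and Tlr2 by 3.61 ± 0.35, Irak3, an inhibitor of receptor signalling, by 2.77 ± 0.41 and the endotoxin-binding protein Lbp by 2.30 ± 0.39. Tlr4, the endotoxin receptor, was called lower after quantile normalization (-0.82), but not without day 7 replicate 2. Casp1 (-0.08) and Pycard (-0.05), core parts of inflammasomes, were not called.

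Macrophage and lysosome genes rose in 23 of 26 cases (88.5%, median 1.88). Tyrobp, an adaptor of myeloid receptors, measured 9.93, 8.98 and 9.31 against 4.97, 5.21 and 5.50 and rose by 4.19 ± 0.39 (adjusted p = 3.64e-06, limma). Gpnmb, a glycoprotein of lipid-laden macrophages, measured 10.54, 10.37 and 10.33 against 5.87, 6.24 and 6.55 and rose by 4.17 ± 0.37 (adjusted p = 3.01e-06, limma). The 3 day 7 arrays lay close together for Gpnmb. Cd68 rose by 3.79 ± 0.38, the inhibitory receptor Fcgr2b by 3.79 ± 0.54 and the mannose receptor Mrc1 by 2.30 ± 0.35. The cathepsins Ctsz (2.38), Ctsk (1.82), which cleaves collagen, and Ctsl (1.43) rose, and Ctsb (0.02) and Ctss (-0.16) were not called.

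Complement genes rose in 8 of 11 cases (72.7%, median 1.53). C3, the hub of the cascade, measured 9.83, 9.13 and 9.51 against 3.70, 4.28 and 4.44 and rose by 5.32 ± 0.58 (adjusted p = 1.46e-05, limma). The receptor C5ar1 rose by 3.08 ± 0.43, the inhibitor Serping1 by 2.32 ± 0.22 and the protease C1s by 1.67 ± 0.17. Cd55, which protects host cells from complement, fell by 1.11, but was not called without day 7 replicate 2 (-0.89).

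Interferon response and antigen presentation genes rose in 16 of 33 cases (48.5%, against 14.7% of all genes, median 0.91). The count was 8 when day 7 replicate 1 or replicate 3 was left out. Ifit3 rose by 5.49 ± 0.37 (adjusted p = 3.35e-07, limma), with 10.29, 7.62 and 8.73 on day 7 and all controls between 3.32 and 3.46. The guanylate-binding protein Gbp2 rose by 2.46 ± 0.38. Isg15 rose by 1.64 ± 0.39 but by 0.98 without day 7 replicate 1, and Rsad2 rose by 1.91 ± 0.61 but was not called without that array (1.31). Mx1 (-0.16), Mx2 (-0.59) and Irf7 (0.53), other interferon-induced genes, were not called.

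In the oxidative stress and haem list 9 of 26 rose (34.6%, against 14.7% of all genes, median 0.11). The haem-degrading enzyme Hmox1 rose by 3.28 ± 0.34, haptoglobin (Hp) by 2.77 ± 0.35, the mitochondrial superoxide dismutase Sod2 by 2.27 ± 0.26 and the haemoglobin scavenger receptor Cd163 by 1.69 ± 0.34. These handle haem or haemoglobin or detoxify superoxide. Of the other members Gclc (-0.34), Nqo1 (0.58) and Txnrd1 (0.38) were not called, and thioredoxin (Txn1) fell by 0.58. Mucosal defence genes rose in 4 of 14 cases (28.6%, against 14.7% of all genes, median 0.74). They were Lcn2, the protease inhibitor Slpi (4.59 ± 0.45), lysozyme (Lyz2, 2.57 ± 0.42) and the bactericidal phospholipase Pla2g2a (2.31 ± 0.31). The lectins Reg3b (1.29 ± 1.02) and Reg3g (1.25 ± 0.74), which epithelium secretes against bacteria, were too variable to be called: Reg3b measured 6.95, 6.96 and 4.42 on day 7 and 3.55, 4.44 and 6.83 (lowest, median, highest) in controls.

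Vessel and adhesion genes rose in 17 of 22 cases (77.3%, median 1.53), with all 7 adhesion molecules among them. Icam1, the ligand of leukocyte integrins, measured 9.05, 7.72 and 8.13 against 5.39, 5.69 and 6.24 and rose by 2.58 ± 0.36 (adjusted p = 0.000121, limma). Von Willebrand factor (Vwf) rose by 2.20 ± 0.43 and Vcam1 by 1.92 ± 0.45. Selp, the selectin that starts leukocyte rolling, measured 7.46, 4.48 and 6.54, so that replicate 2 lay just above the highest control (4.40), and its rise of 1.90 ± 0.43 became 1.25 without day 7 replicate 1. Vegfa (-0.01), Vegfc (-0.06) and Flt1 (-0.15) were not called.

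**Figure D3:**
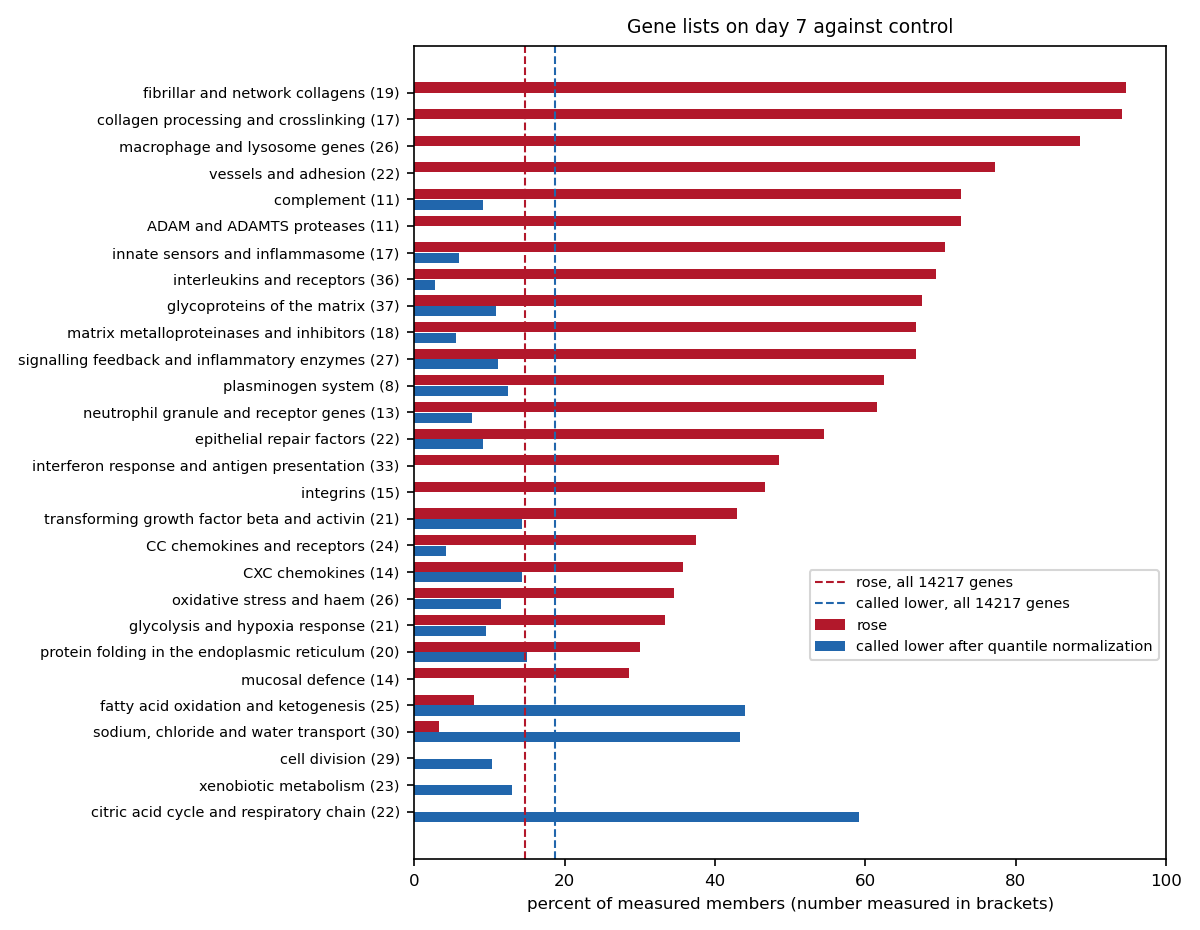
Percent of the measured members of each gene list that rose on day 7 and percent called lower after quantile normalization. The dashed lines mark the same shares over all genes, 14.7% and 18.7%. Collagen, collagen processing and macrophage lists reach 88.5% to 94.7% risen, while the transport, fatty acid oxidation and respiratory chain lists carry the largest shares called lower.

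Cell division genes did not rise. Of 29 measured, limma called 0 higher and 3 lower after quantile normalization (10.3%, below the 18.7% of all genes). The median was -0.24, or 0.51 as deposited, and the proliferation marker Mki67 differed by -0.16 and Top2a by -0.30. Ccnd1 (-0.53), Cenpa (-0.50) and Tyms (-0.42) were the 3, and the direction of Cenpa turned as deposited (0.08). A further probe set of Ccnd1 was called higher. Endoplasmic reticulum folding genes rose in 6 of 20 cases (30%, against 14.7% of all genes, median 0.29), and in 3 without day 7 replicate 1 or replicate 2. The stress factor Ddit3 rose by 2.25 ± 0.37 and calreticulin (Calr) by 0.78 ± 0.10. The stress gene Herpud1 fell by 0.98 ± 0.20, but lost the call as deposited in at least 1 fit that left out an array. Hspa5 (0.37) and Xbp1 (0.19) were not called. Of 22 epithelial repair and stromal growth factors 12 rose (54.5%, against 14.7% of all genes, median 0.27), 7 without day 7 replicate 1. The growth factor Igf1 rose by 2.62 ± 0.39 and its binding protein Igfbp5 by 2.19 ± 0.35. The Wnt pathway genes Wnt4 and Sfrp1, an antagonist, rose by 2.17 ± 0.24 and 2.14 ± 0.30. Areg (-0.35) and Hgf (0.18), which act on epithelium, were not called.

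Marker lists of cell types share members with these gene groups, among them Csf3r, Cxcr2, Cd68, Mrc1 and Col1a1. Their changes are therefore not a separate result. Macrophage markers rose in 9 of 9 cases and neutrophil markers in 4 of 5. The mean of the macrophage list stood 1.84, 2.36 and 2.20 above the control mean on the 3 day 7 arrays, against -0.36 to 0.19 for single controls, and that of the neutrophil list 5.02, 3.96 and 4.44 against -0.18 to 0.16. Replicate 1 was the highest day 7 array for neutrophil markers and the lowest for macrophage markers. Aif1, a macrophage marker that rose by 2.75, has a further probe set called lower.

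Endothelial markers rose in 7 of 8 cases (1.88, 0.76 and 1.49 above the control mean by array) and fibroblast markers in 7 of 11 (1.17, 1.03 and 0.95), including Pdpn (2.24 ± 0.28) and Thy1 (2.28 ± 0.37). Lymphocyte lists moved little. Of 11 T cell markers 3 rose (27.3%, against 14.7% of all genes), and 1 did without day 7 replicate 2 or replicate 3. They were Cd8a (1.10), Cd2 (0.92, with overlapping arrays) and Cd4 (0.33). With median centring Cd4 differed by 0.21 and was not called. None of 7 B and plasma cell markers was called by limma, and the control arrays themselves ranged from -0.65 to 1.83 on that list. Of 5 eosinophil markers 1 rose (20%, against 14.7% of all genes), Ccr3 by 0.30. That call was lost in 5 of the 9 fits that left out an array. It was also lost with median centring, where Ccr3 differed by 0.03. The probe set of Ccr3 was among the 25% with the lowest means. Mast cell markers diverged, with Cma1 up by 0.67 ± 0.15 and Mcpt1, a protease of connective tissue mast cells, down by 2.03 on the log2 scale with overlapping arrays and not called without day 7 replicate 1 (-1.71) or without replicate 2.

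Smooth muscle markers gave 0 of 13 that rose and 3 called lower after quantile normalization (23.1%, near the 18.7% of all genes). Among the 3, 2 fell (1.53% of all genes fell): smoothelin (Smtn) by 1.54 ± 0.29 and Csrp1 by 1.06 ± 0.18. Smtn measured 8.74, 8.47 and 8.47 on day 7 and 9.68, 10.03 and 10.78 (lowest, median, highest) in controls, so the groups did not overlap. Abundant contractile genes were not called, with Myh11 at -0.45 and Actg2 at 0.36. The median of the list was -0.29 after quantile normalization and 0.05 as deposited.

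Epithelial lists differed from each other. Markers of all epithelium gave 4 of 13 called lower after quantile normalization (30.8%, against 18.7% of all genes), 1 without day 7 replicate 1, and absorptive colonocyte markers 5 of 13 (38.5%; Slc26a3, Guca2a, Krt20, Muc3 and Cdhr5), again 1 without that array. The absorptive list mean was -1.46, -0.46 and -0.69 relative to controls on the 3 day 7 arrays, against -0.24 to 0.26 in single controls, and that of all epithelium -0.94, -0.14 and -0.20. The goblet cell list stood at -0.96, 0.13 and 0.03, so only replicate 1 was low, the enteroendocrine list at -1.09, -0.23 and -0.46, and the stem and crypt base list at -0.18, -0.21 and -0.26, with replicate 1 nearest to control. The part of a change in epithelial share in the decreases that follow was not tested. Elf3, an epithelial transcription factor, fell by 0.94 ± 0.22 and the membrane mucin Muc3 by 0.95 ± 0.22. Both lost the call as deposited in at least 1 fit that left out an array. Krt20, a keratin of surface cells, fell by 0.98 but by 0.65 without day 7 replicate 1, when it was not called. Of 9 goblet cell markers 2 were called lower (22.2%, near the 18.7% of all genes): Fcgbp, a mucus protein, fell by 1.17 but was not called without day 7 replicate 1 (-1.06), and Tff3 differed by -0.62. Muc2, the main mucin of the colon, differed by -0.23 and was not called. In enteroendocrine cells the peptide Pyy fell by 1.41 ± 0.22, and Neurod1 differed by -0.60, the 2 lower among 9 markers, which is again 22.2%. Pyy lost the call as deposited in at least 1 fit that left out an array. Of 5 stem and crypt base markers Cd44, also carried by leukocytes, rose by 1.45 ± 0.25 (20%, against 14.7% of all genes). The crypt base genes Lgr5 (-0.87) and Ascl2 (-0.94) were called lower after quantile normalization (40%, against 18.7% of all genes).

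**Figure D4:**
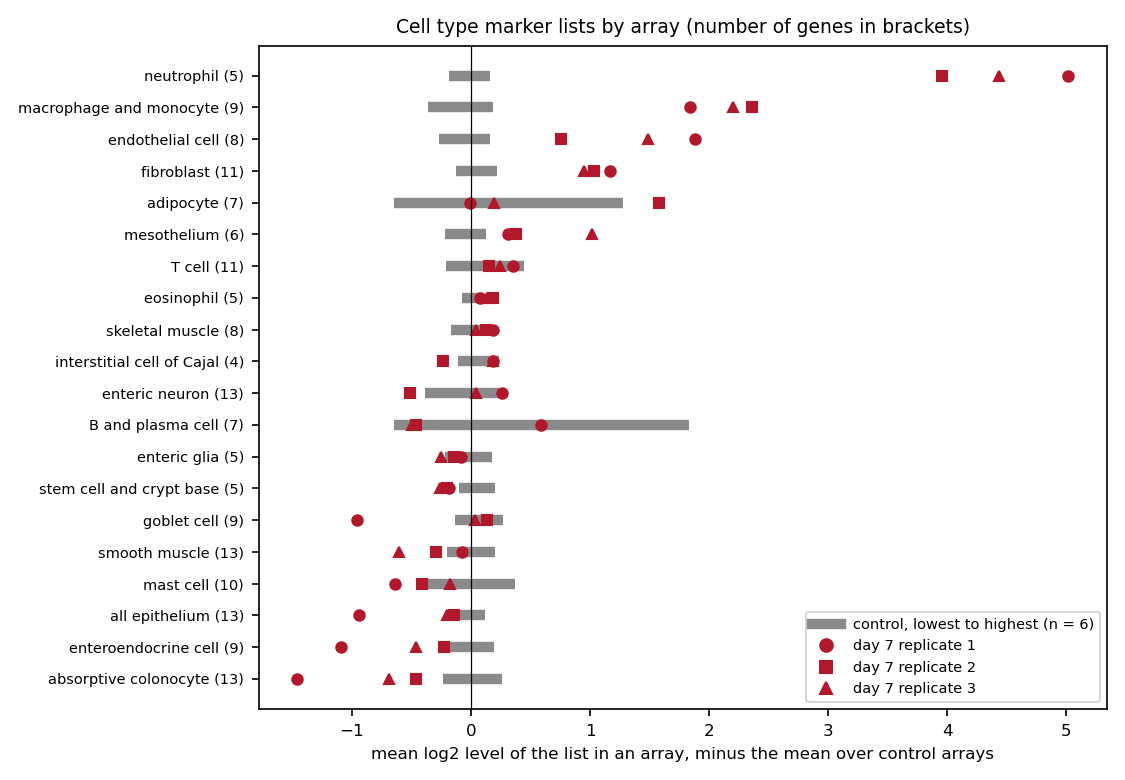
Mean of each cell type marker list on each day 7 and control array, as log2 difference from the control mean. Neutrophil markers reach 3.96 to 5.02 on day 7, macrophage markers 1.84 to 2.36, and absorptive colonocyte markers -1.46 to -0.46 with replicate 1 lowest.

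Transport genes of the absorptive epithelium were mostly lower or not called. Of 30 sodium, chloride and water transport genes 13 were called lower after quantile normalization (43.3%, against 18.7% of all genes, median -0.96). Of the 13, 5 fell (1.53% of all genes did). The anion exchanger Slc26a6 alone rose (3.33%, against 14.7% of all genes). Its difference was 0.44, and its call was lost in 5 of the 9 fits that left out an array. Without day 7 replicate 1 only 5 were called lower. Aqp3, a basolateral water channel, measured 8.01, 7.03 and 8.08 on day 7 and 9.21, 9.40 and 9.69 (lowest, median, highest) in controls and fell by 1.75 ± 0.29 (adjusted p = 0.000451, limma).

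Slc26a3, the chloride-bicarbonate exchanger of surface cells, fell by 1.47, the mineralocorticoid receptor Nr3c2 by 1.25 and guanylin (Guca2a) by 1.24. None of the 3 was called without day 7 replicate 1, where they differed by -1.09, -0.92 and -0.63. Guca2a shows the spread, with 10.61 on replicate 1, 12.41 and 12.45 on the others and 12.89 to 13.20 in controls. The water channel Aqp8 differed by -1.97 ± 0.72 (adjusted p = 0.0508, limma; 0.00251 to 0.156 over the alternatives) without overlap of the arrays, the exchanger Slc9a3 by -1.82 and the carbonic anhydrase Car1 by -0.30, and none was called. The sodium channel subunit Scnn1a was called lower after quantile normalization (-1.47).

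Genes that burn fatty acids were lower in 11 of 25 cases after quantile normalization (44%, against 18.7% of all genes), 7 without day 7 replicate 1. The median was -0.50, or 0.02 as deposited. Of the 11, 5 fell (1.53% of all genes did). The mitochondrial carnitine genes Cpt2 (0.79) and Slc25a20 (0.39) rose (8% of the list, against 14.7% of all genes). Neither call held without day 7 replicate 2. Slc16a1, the carrier of butyrate and lactate, measured 9.28, 9.75 and 9.40 against 10.68, 10.80 and 11.18 and fell by 1.38 ± 0.21 (adjusted p = 0.000242, limma). The dehydrogenases Acadm and Acads fell by 1.04 ± 0.21 and 0.98 ± 0.18, in both cases as deposited only while day 7 replicate 1 was included. Cpt1a (-0.22) and Acadvl (-0.27), which handle long chains, were not called.

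Citric acid cycle and respiratory chain genes gave the largest share called lower, 13 of 22 (59.1%, against 18.7% of all genes, median -0.39). Of the 13, 4 fell (1.53% of all genes did), and no member of the list rose. As deposited the median was -0.01, against 0.56 for all genes. Ndufs1, a subunit of complex I, measured 8.01, 8.49 and 8.63 against 9.17, 9.30 and 9.50 and fell by 0.94 ± 0.12 (adjusted p = 4.54e-05, limma). Sdha and Sdhb of complex II fell by 0.77 and 0.76, the latter by 0.51 without day 7 replicate 1, and malate dehydrogenase Mdh1 by 0.61. Sdha, Sdhb and Mdh1 each lost the call as deposited in at least 1 fit that left out an array. The citrate synthase gene Cs (0.03) and Atp5f1a (-0.06) were not called.

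Glycolysis and hypoxia genes were mixed: 7 of 21 rose (33.3%, against 14.7% of all genes, median 0.05), 4 without day 7 replicate 1. Called lower were 2 (9.52%, against 18.7% of all genes), Pck1 and the oxygen sensor Egln3 (-0.96). The glucose carrier Slc2a3, which leukocytes use, rose by 2.71 ± 0.40 and the lactate exporter Slc16a3 by 1.90 ± 0.30. Hexokinase 2 (Hk2) rose by 1.05, with replicate 2 at 5.67 inside the control range of 4.93 to 5.68, and was not called without day 7 replicate 3 (0.82) or replicate 1. Pck1, an enzyme of glucose synthesis, fell by 1.76 but was not called without day 7 replicate 1 (-1.24). Xenobiotic metabolism genes were lower in 3 of 23 cases after quantile normalization (13%, median -0.32), which is below the 18.7% of all genes, and none rose. Aldh1a1 (-1.23), Abcc3 (-0.89) and the sulfotransferase Sult1b1 (-0.70) were the 3, and they lost their calls in 7, 8 and 2 of the 9 fits that left out an array.

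Calls were then counted in the 9 fits that each left out 1 array. Over all list and named genes, 222 of 296 called higher after quantile normalization (75%) were called in each of the 9 fits, as were 60 of 114 called lower (52.6%). With the call as deposited required too, which the upward shift of those values makes harder for decreases only, 222 of 296 that rose and 11 of 43 that fell kept both calls. The 11 were Amn, Aqp3, Csrp1, Fut1, Ndufs1, Nmu, S100a10, Slc16a1, Smtn, Sstr1 and Txn1. Removal of day 7 replicate 1 left 153 of 178 named genes with the same direction and call, removal of replicate 2 left 164 and removal of replicate 3 left 170.

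Few genes were called between day 7 and day 5. Of all genes 2 were called higher on day 7 (0.0141%) and none was called lower by limma, while at an unadjusted p under 0.05 there were 833 probe sets higher and 1195 lower. The number of calls depended on the fit: 5 probe sets were higher and 0 lower, but 36 and 51 without day 5 replicate 2 and 91 and 140 with array weights. Ccl9 measured 8.96, 8.26 and 7.96 on day 7 and 4.93, 4.75 and 5.54 on day 5, a difference of 3.32 ± 0.35 (adjusted p = 0.00139, limma; 0.000385 to 0.403 over the alternatives, the highest in a fit of these 6 arrays alone). Itga8, an integrin chain of fibroblasts and smooth muscle, was higher by 0.99 ± 0.13 (adjusted p = 0.00439, limma), and its call was lost without day 5 replicate 3 (0.94). The probe set of Itga8 was among the 50% with the lowest means. No other gene of the lists was called with all arrays. Without day 5 replicate 2, 2 CXC chemokines and 2 transport genes were called lower, 1 interleukin list member was called higher and 1 lower, and 8 further lists gained 1 call each. The collagen list was 1.62 above control on day 7 at the median, and its members such as Col1a1 (0.57, adjusted p = 0.919, limma) did not pass the test against day 5. The arrays therefore give no test that sets day 7 apart from day 5 as the peak of these gene groups. By group means alone, the highest of the 5 groups was day 7 for 18 of 19 collagens, 15 of 17 processing enzymes, 29 of 37 matrix glycoproteins, 12 of 18 metalloproteinases and inhibitors and 21 of 26 macrophage and lysosome genes, against 16.5% of all genes. It was day 5 for 23 of 33 interferon and antigen presentation genes, against 14.8% of all genes, and day 2 for 17 of 29 cell division genes, against 18.5%.

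Against day 2, 1.05% of genes were called higher on day 7 and 0.345% lower. Of the collagens 10 of 19 were higher, but the count depended on single arrays: it was 0 without day 2 replicate 1 or day 7 replicate 3, 1 without day 2 replicate 3 or day 7 replicate 1 and 6 without day 7 replicate 2. Col1a1 had a mean of 9.87 on day 2 and 12.14 on day 7 (difference 2.26, adjusted p = 0.0276, limma), while the control mean was 9.84. Its day 2 arrays, at 8.88, 10.66 and 10.09, lay on either side of the control range of 9.76 to 10.02. Metalloproteinases and inhibitors were higher in 2 of 18 cases, Mmp14 by 1.41 (adjusted p = 0.0201, limma) and Mmp23 by 0.94, and in 0 without day 2 replicate 1 or 3 or day 7 replicate 1 or 3. Timp1 was already at a mean of 11.55 on day 2 against 11.01 on day 7.

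The largest increases from day 2 were Ifit3 (4.66), A2m (4.21), Arg1 (4.09), Ccl9 (3.86) and Il1b (3.10). Ifit3 and Ccl9 kept their calls in every fit that left out an array, whereas A2m lost it without day 2 replicate 1 or 2 or day 7 replicate 1 or 3, Arg1 without day 2 replicate 1 and Il1b without day 7 replicate 1. The largest decreases were Fmo2 (-1.72), the chloride channel Best2 (-1.70), the sodium channel subunit Scnn1b (-1.41), the phospholipase Pla2g5 (-1.27) and the mucin Muc4 (-1.22). Pla2g5 measured 3.67, 3.46 and 3.78 on day 7 and 5.03, 5.04 and 4.65 on day 2, without overlap, and was the only 1 of the 5 that no single-array omission ended.

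Against day 14, 4.32% of genes were called higher on day 7 and 1.72% lower. Among matrix lists 17 of 19 collagens were higher (10 without day 14 replicate 2, 11 without day 14 replicate 3), as were 11 of 17 processing enzymes (2 without day 7 replicate 1, 6 without day 14 replicate 2, 4 without day 14 replicate 3). Of matrix glycoproteins 17 of 37 were higher (10 without day 7 replicate 1 or day 14 replicate 3, 11 without day 14 replicate 2), and of metalloproteinases and inhibitors 7 of 18 (3 without day 7 replicate 1, 4 without day 14 replicate 1 or 2, 2 without day 14 replicate 3). Lox had a mean of 5.98 on day 14 against 8.59 on day 7 (2.60, adjusted p = 0.0102, limma), Col18a1 6.66 against 8.75 (2.09, adjusted p = 0.00232, limma) and Mmp9 3.86 against 6.40 (2.54, adjusted p = 0.0231, limma). Vcan measured 6.08, 5.32 and 4.50 on day 14, spread wider than the controls (4.68 to 6.07), and was 3.88 higher on day 7 (adjusted p = 0.00486, limma). Mmp14 remained at a mean of 9.75 on day 14 against 8.23 in controls and was 1.45 higher on day 7 (adjusted p = 0.00562, limma).

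**Figure D5:**
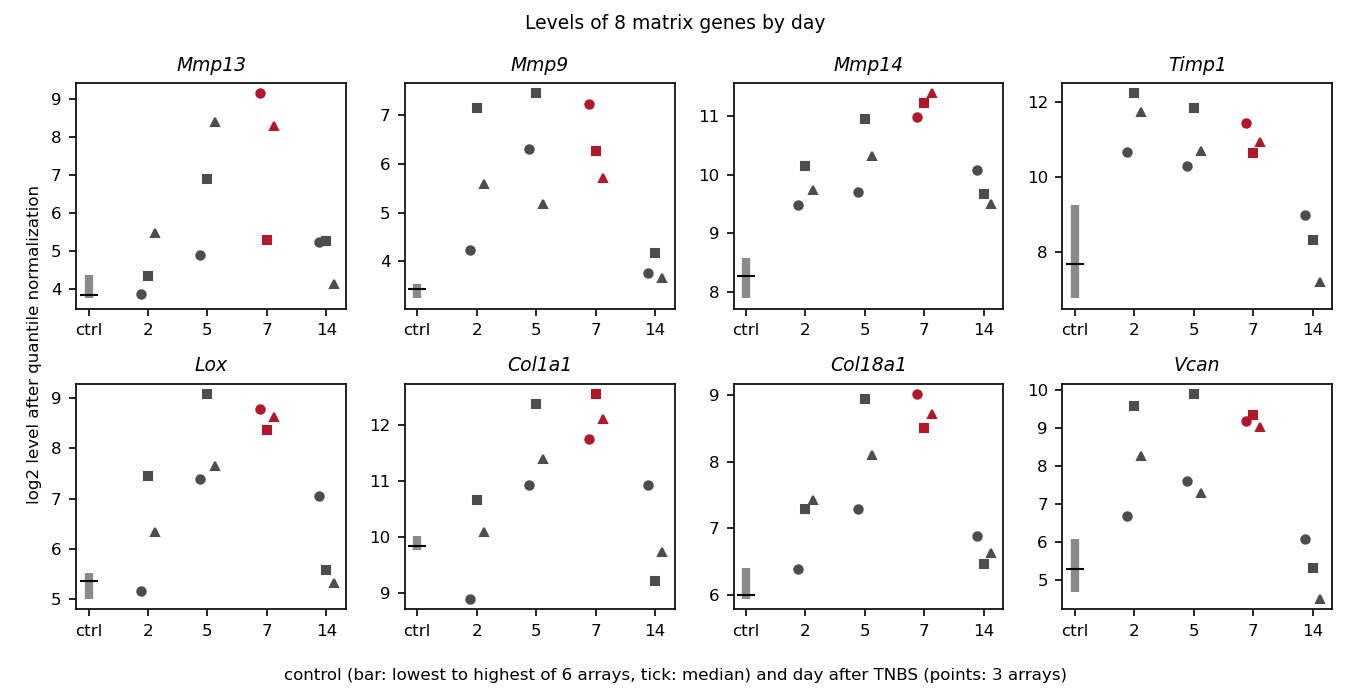
Log2 level of 8 matrix genes (Mmp13, Mmp9, Mmp14, Timp1, Lox, Col1a1, Col18a1, Vcan) on each array by group, control and days 2, 5, 7 and 14, with its own axis for each gene. The day 7 arrays lie above all controls for every gene shown, Timp1 and Vcan are above all controls on day 2 as well, and the day 2 and day 14 arrays of Col1a1 lie above or below the narrow control range.

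Inflammatory genes were also higher on day 7 than on day 14. The largest differences were Cxcl2 (7.44 ± 0.64), Il1r2 (6.13), S100a8 (5.63), Il1b (5.49) and Lcn2 (5.37), and each kept its call in all the alternatives. Cxcl2 measured 5.28, 4.30 and 3.55 on day 14, of which the lowest lay within the control range of 3.28 to 3.63. Macrophage and lysosome genes were higher in 18 of 26 cases (9 without day 14 replicate 3), interleukins and receptors in 16 of 36 (10 without day 7 or day 14 replicate 1, 9 without day 14 replicate 3), neutrophil genes in 6 of 13 and complement in 6 of 11. Interferon and antigen presentation genes were higher in 3 of 33 (1 without day 7 replicate 1, 5 without day 7 replicate 2). The largest decreases were Guca2b (-1.82), Amn (-1.64), Crym (-1.62), Aqp3 (-1.35) and the peptide Edn2 (-1.31), and of these Amn alone kept its call whichever array was left out. Amn measured 6.84, 6.45 and 6.37 on day 14, above all day 7 arrays (4.41 to 5.19) and below all controls (7.01 to 7.36). Respiratory chain genes were lower on day 7 in 7 of 22 cases, but in 1 without day 7 replicate 1 or day 14 replicate 3 and in 2 without day 14 replicate 1.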

How the data were processed

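The table deposited by the authors covers 31099 probe sets on 18 arrays (Affymetrix Rat Genome 230 2.0). Per the labels' study design, normalization used the Bioconductor package affyPLM. Its version and background method, the log base and joint or separate treatment of the arrays: not given in the sources used here. From their range the deposited values were taken as log2.

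All 18 arrays were quantile normalized. Array control probe sets (57) were dropped and 31042 tested with limma 3.58.1 in R 4.3.3, with 1 coefficient for each of 5 groups, two-sided, and Benjamini-Hochberg adjustment over all probe sets at 0.05. Adjusted p-values measure the spread between these arrays. Of the probe sets 20826 carry 1 gene symbol, 436 several and 9780 none listed, and 20758 of the first have a gene ID in the RefSeq table. Each of 14217 genes is read from its brightest single-symbol probe set, by the mean over all arrays. For 146 genes probe sets were called in both directions, among those named by rule Aif1, Ccnd1 and Slfn4. The procedure was tested on simulated data. Columns of other samples numbered 0.

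Named by rule (178 genes) were the 12 largest increases and 12 largest decreases called on both scales without overlap of arrays, up to 4 members of each list called on both scales (otherwise up to 2 called after quantile normalization), a panel of 33 genes (32 measured), and the 5 largest changes in each direction against days 5, 2 and 14 without overlap; symbols beginning with LOC or RGD were passed over. Other list members were named after their values were seen. The members, the 28 gene lists (596 of 677 genes measured) and the 20 marker lists (167 of 193) were chosen with earlier results of these data known. Promoters come from RefSeq (GRCr8).

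Alternatives were the deposited scale, median centring, filters that drop the 25% or 50% of probe sets with the lowest means, a trend and robust prior, array weights, the replicate number as a block, only the groups compared, 1 probe set per gene, a threshold of 0.01 and each array left out.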

Additional observations from a re-analysis of the deposited data

Results flagged for a closer look

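For 16 of the 178 named genes 1 of the 6 control arrays stood apart from the rest, with its gap to the nearest control above 0.625 of the control range; chance alone marks about 1 in 20 groups. Control replicate 2 was the highest for Plek (0.807 of the range, 6.21 against 4.49), Mmp12 (0.775), Itgb2 (0.665) and Lyz2 (0.663), all genes of myeloid cells, and the lowest for Cd4 (0.755). Control replicate 1 was the highest for Slfn4 (0.687) and Col1a1 (0.645) and the lowest for Guca2b (0.682), Hmox1 (0.674) and Cma1 (0.646). Control replicate 5 was the lowest for Calb2 (0.806) and Drc3 (0.673) and the highest for Adamts4 (0.771), control replicate 6 the highest for Vip (0.816) and Nfkbiz (0.642), and control replicate 3 the highest for Scnn1b (0.718).

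Day 7 differed from other days by limma in 5 probe sets higher than day 5, 234 higher and 69 lower than day 2, and 921 higher and 365 lower than day 14. Against day 5 the genes were Ccl9 (3.32) and Itga8 (0.99). Against day 2 the named increases were Ifit3 (4.66), A2m (4.21), Arg1 (4.09), Ccl9 (3.86) and Il1b (3.10), and the named decreases Fmo2 (-1.72), Best2 (-1.70), Scnn1b (-1.41), Pla2g5 (-1.27) and Muc4 (-1.22). Against day 14 the increases were Cxcl2 (7.44), Il1r2 (6.13), S100a8 (5.63), Il1b (5.49) and Lcn2 (5.37), and the decreases Guca2b (-1.82), Amn (-1.64), Crym (-1.62), Aqp3 (-1.35) and Edn2 (-1.31).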

How the results depend on the processing

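Probe sets called on day 7 against control numbered 3849 higher and 4951 lower after quantile normalization, 24872 and 331 as deposited and 3460 and 12326 with median centring, so 43.7%, 98.7% and 21.9% of the calls were increases; both scales shared 3849 and 331. With 1 probe set per gene the counts were 2125 and 2712 (both scales 2125 and 210), at an adjusted p under 0.01 they were 2410 and 2620 (both scales 2410 and 133), and 501 were lower on both scales with only the groups compared. Leaving out each array gave 2801 to 3793 higher and 3279 to 4862 lower (both scales 2801 to 3793 and 173 to 337). Against day 5 (5 higher, 0 lower) these omissions gave 4 to 36 and 0 to 51; 1 lower was called as deposited, with median centring or with the trend and robust prior, 1 higher without the lowest 50% of probe sets, 2 with 1 probe set per gene, 0 with only the groups compared, and 91 and 140 with array weights. Against day 2 (234 and 69) the omissions gave 31 to 496 and 5 to 112; lower calls were 45 with the trend and robust prior and 113 with array weights, both counts were 21 and 2 at 0.01 and 0 and 0 with only the groups compared. Against day 14 (921 and 365) the omissions gave 375 to 1177 and 58 to 516, array weights 1746 and 1288, the stricter threshold 333 and 41, and only the groups compared 224 lower. With the replicate block, although the numbers do not pair the arrays, the counts were 3 and 2 against day 5, 23 and 7 against day 2 and 552 and 214 against day 14. Against control, 158 of 178 named genes kept direction and side of the threshold while 20 lost the call. Control replicates 4, 5 and 6 share their number with no other array. The block fit therefore compares day 7 with control replicates 1, 2 and 3 only, so the lost calls do not measure pairing alone. As deposited, the direction turned for Cenpa (0.0835) and Erbb3 (0.0222); 162 of the 178 named genes kept both there and 171 with median centring. Without day 7 replicate 1, 23 of the 178 lost the call, without replicate 2, 14, and without replicate 3, 8. With only the groups compared all 10 named calls against day 2, both against day 5 and 3 of 10 against day 14 ended. Precision is limited by how few arrays there are. The replicate numbers did not pair the arrays: deviations of same-numbered arrays correlated at 0.07, -0.04 and -0.07 for day 7 and control, -0.31, -0.06 and 0.14 for day 5, -0.33, -0.03 and -0.17 for day 2 and 0.17, 0.16 and 0.05 for day 14. The cause of these shifts was not tested.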

Other observations

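Genes of the outer wall and of nerves moved in both directions. Of all genes 14.7% rose and 18.7% were called lower after quantile normalization. Of the mesothelium markers 50% rose and 33.3% were called lower, and of the enteric neuron markers 7.69% and 30.8%. Of 6 mesothelium markers 3 rose: Msln, a surface protein of serosal cells, measured 6.05, 5.64 and 7.05 on day 7 against 3.68, 3.93 and 4.15 (lowest, median, highest) in controls and rose by 2.32 ± 0.26, the transcription factor Wt1 by 1.42 ± 0.18 and Upk1b by 1.33 ± 0.23. Calb2, which marks mesothelium and some enteric neurons, fell by 1.45 ± 0.22, as deposited only while day 7 replicate 1 was included. Krt19 (-0.43) was called lower after quantile normalization, but not without the same array. Of 13 enteric neuron markers 1 rose, Vip, a relaxing neuropeptide, by 2.34 ± 0.46 with 10.90, 8.97 and 10.68 against 7.68, 7.70 and 8.47. The neurofilament genes Nefl (-1.06) and Nefm (-0.77), Chat (-0.47) and Snap25 (-0.76) were called lower after quantile normalization, the last not in 1 of the 9 fits that left out an array.

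Among 5 enteric glia markers Erbb3 (-0.82) was called lower after quantile normalization, with a difference of 0.02 as deposited. This share of 20% is near the 18.7% of all genes. Of 4 markers of interstitial cells of Cajal, the pacemaker cells, the gap junction gene Gja1 rose by 1.88 ± 0.32 (25%). Etv1 (-0.84) and Ano1 (-0.86) were called lower after quantile normalization (50%), Ano1 in 3 of the 9 fits that left out an array. Of 8 skeletal muscle markers Acta1 alone rose (12.5%, below the 14.7% of all genes). It rose by 2.50 ± 0.54, with 10.91, 10.23 and 8.90 against 7.12, 7.63 and 7.80. Pvalb was called lower after quantile normalization (-0.39), again 12.5%, below the 18.7% of all genes. Of 7 adipocyte markers Fabp4, also made by macrophages and endothelium, rose by 1.65 ± 0.56 with overlapping arrays (14.3%, near the 14.7% of all genes). That call was ended by 7 of the 9 omissions.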
